A study of Gallus gallus with 6 samples.

Results

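The genes described here encode 8 cell adhesion proteins that carry immunoglobulin domains and are known from growing axons: NCAM1, NCAM2, ALCAM, CNTN1, CNTN2, CHL1, NRCAM and NFASC. They were chosen as a family of proteins, with earlier results of these data known, and each was found in exactly 1 of the 17108 gene rows of the authors' deposited table. RNA was sequenced from wild type chick embryos at embryonic day 3 (Hamburger Hamilton stage 18), in 3 libraries of posterior and 3 libraries of anterior half-sclerotomes. The sclerotome is the ventral part of the somite that forms the vertebral column, and it is divided along the body axis into a posterior and an anterior half-sclerotome. Every library was made from a pool of 100 half-sclerotomes dissected from the 11th to the 23rd most recent somite, and the labels name no treatment for either group. All levels are the authors' FPKM (fragment numbers divided by the length of the transcript and by the sequencing depth), with 1 value per group and none per library, so no spread between libraries can be given beside a level. A gene is called here when the authors' q, their p-value adjusted over all 10529 tested rows, was under 0.05. How the 3 libraries of a group entered q is not given in the sources, so q does not tell how far they agreed. The labels do not say whether the pools came from separate embryos, and any spread between libraries that q does hold may be partly technical.

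Proteins of this kind sit on the axon and growth cone surface and bind to themselves, to each other or to matrix. NCAM1 and NCAM2 are neural cell adhesion molecules that bind to copies of themselves on the next cell, and NCAM1 is also widespread in embryonic mesoderm. Contactins, such as CNTN1 and CNTN2, are held in the membrane by a lipid anchor and have no cytoplasmic part, whereas CHL1, NRCAM and NFASC belong to the L1 family, whose cytoplasmic tails bind ankyrin. Motor axons and neural crest cells of the trunk cross the anterior and avoid the posterior half-sclerotome, which is the contrast that the comparison addresses.

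Of the 8 genes, 3 were lower in posterior than in anterior half-sclerotomes in the authors' Cuffdiff test: CNTN2, NFASC and ALCAM. NCAM1, by far the most abundant, was at nearly the same level in both. The remaining 4, NRCAM, CNTN1, CHL1 and NCAM2, were too low for the authors' software to test. Thus 3 of 4 tested genes were called higher in anterior and 0 of 4 higher in posterior, against 3.50% and 3.57% of all tested rows (7.07% in either direction); at an unadjusted p under 0.05 the count in posterior was also 0. All 3 were at least 2-fold higher in anterior, as were 1.68% of tested rows. This share of 4 is not representative of the 8, because CNTN2 and NFASC had posterior levels under 0.805 FPKM, the lowest mean FPKM of any tested row, and so were tested only through their anterior level. In tissue pieces such as these, fewer cells of a type and less RNA per cell cannot be told apart.

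**Figure D1:**
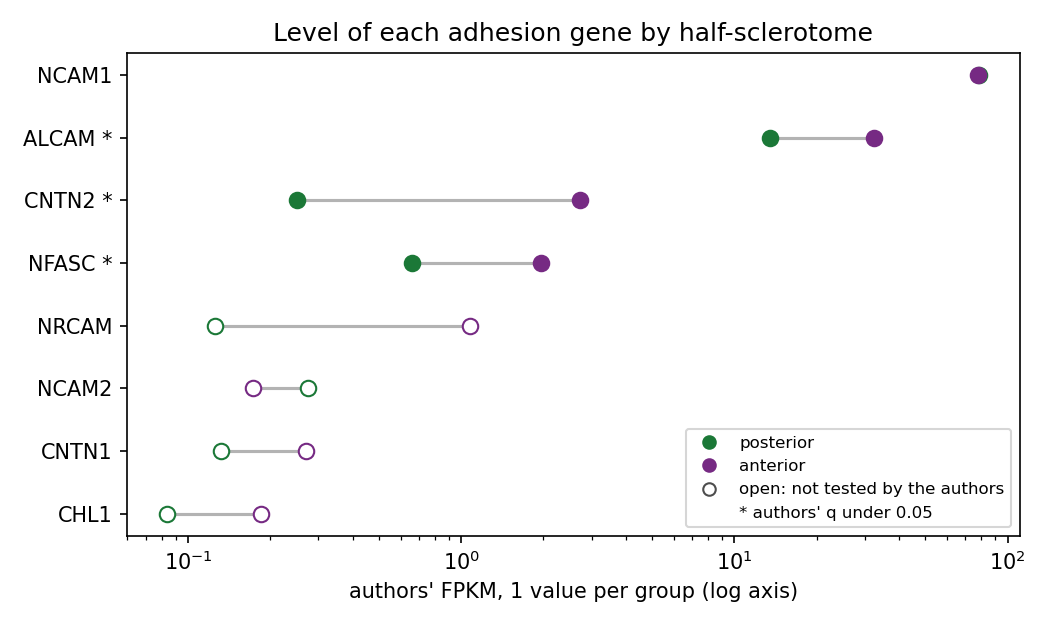
Level of each of the 8 genes in posterior (green) and anterior (purple) half-sclerotomes, as the authors' FPKM on a log axis with 1 value per group. Filled points were tested by the authors, open points were not, and an asterisk marks a q under 0.05. NCAM1 has both points on top of each other near 78 FPKM, and the gap is widest for CNTN2.

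NCAM1 was at 78.6 FPKM in posterior and 78.1 FPKM in anterior half-sclerotomes (log2 ratio of posterior over anterior 0.01). Its q was 0.989 in the authors' deposited table, where its p was 0.936. A missed threshold does not show that posterior and anterior are alike, and without values per library no interval of the difference can be given. On the build galGal4 the gene lies on chromosome 24 from 5803421 to 5884198. NCAM1 made up 84.0% of the summed FPKM of the 8 genes in posterior and 66.8% in anterior half-sclerotomes. Its mean level was above that of 87.3% of tested rows.

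NCAM2, the other neural cell adhesion molecule, was at 0.274 FPKM in posterior and 0.173 FPKM in anterior half-sclerotomes and was not tested. It is the only one of the 8 besides NCAM1 whose posterior value was the higher one. At such a level no direction can be read from it: of 1337 rows with a mean FPKM within 2-fold of that of NCAM2, 0 were tested.

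ALCAM, an adhesion protein that binds to itself and to CD6 and was described in chick under the names BEN and DM-GRASP on motor and sensory axons, fell to 13.4 FPKM in posterior half-sclerotomes, against 32.4 FPKM in anterior ones. This is a log2 ratio of -1.27, or 2.41-fold lower in posterior (q = 0.00139 in the authors' deposited table). ALCAM was the second most abundant of the 8 genes in both groups, with 14.4% of their summed FPKM in posterior and 27.7% in anterior half-sclerotomes. It lies on chromosome 1 from 85893284 to 86010821. Its level was high enough for testing in either group. Of 4261 tested rows with a mean FPKM within 2-fold of its own, 2.68% were called higher in anterior.

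CNTN2, known in chick as axonin-1 and found on commissural and sensory axons, had the largest difference. It fell to 0.250 FPKM in posterior half-sclerotomes, against 2.71 FPKM in anterior ones, a log2 ratio of -3.44 or 10.8-fold lower in posterior (q = 0.00139 in the authors' deposited table). Among the 368 genes called higher in anterior, only 9 had a larger ratio, so CNTN2 stood 10th in that order. The size of the ratio depends on a very low posterior value: with 1 added to each FPKM before the log, the log2 difference was -1.57. CNTN1, a contactin of axons known in chick as F11, was at 0.132 FPKM in posterior and 0.269 FPKM in anterior half-sclerotomes and was not tested. The value of CNTN1 was thus below that of CNTN2 in either group, but posterior values this low cannot be ordered without values per library. The summed FPKM of CNTN1 and CNTN2 was 0.383 in posterior and 2.98 in anterior half-sclerotomes.

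In the L1 family, NFASC (neurofascin, found with ion channels and ankyrin at the axon initial segment and nodes of mature axons) was the tested member. It fell to 0.658 FPKM in posterior half-sclerotomes, against 1.96 FPKM in anterior ones, a log2 ratio of -1.58 or 2.99-fold lower in posterior (q = 0.00139 in the authors' deposited table). With 1 added to each FPKM, its log2 difference was -0.84. NRCAM, which binds contactins and neurofascin and takes part in axon guidance, was at 0.126 FPKM in posterior and 1.08 FPKM in anterior half-sclerotomes. Its ratio was close in size to that of CNTN2 (log2 ratio -3.10), but it was not tested, and only 51 of the 1418 rows within 2-fold of its mean level were, so it is given as values only. CHL1, a close homolog of L1, had the lowest mean of the 8, at 0.0841 FPKM in posterior and 0.185 FPKM in anterior half-sclerotomes, also not tested. Summed over CHL1, NRCAM and NFASC, the L1 family stood at 0.868 FPKM in posterior and 3.22 FPKM in anterior half-sclerotomes.

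Ordered by the mean of both groups, the genes ran from NCAM1 through ALCAM, CNTN2, NFASC, NRCAM, NCAM2 and CNTN1 to CHL1. FPKM is scaled by transcript length, so these levels can be set side by side, although neighbours in the order cannot be separated from each other without values per library. NCAM1 and ALCAM stood far above the rest. The other 6 genes were each at or under 0.658 FPKM in posterior and at or under 2.71 FPKM in anterior half-sclerotomes. Without NCAM1, the summed FPKM of the remaining 7 genes was 15.0 in posterior and 38.8 in anterior half-sclerotomes (2.59-fold lower in posterior), whereas with NCAM1 it was 93.6 and 116.9 FPKM in posterior and anterior half-sclerotomes (1.25-fold lower in posterior).

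Rows of low level were called more often in anterior than rows of high level. Among the 1045 tested rows within 2-fold of the mean FPKM of CNTN2, 7.46% were called higher in anterior, and among the 884 within 2-fold of NFASC the share was 7.81%. Both exceed the 3.50% over all tested rows. The CNTN2 and NFASC calls thus come from a range of levels in which anterior calls were more frequent.

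**Figure D2:**
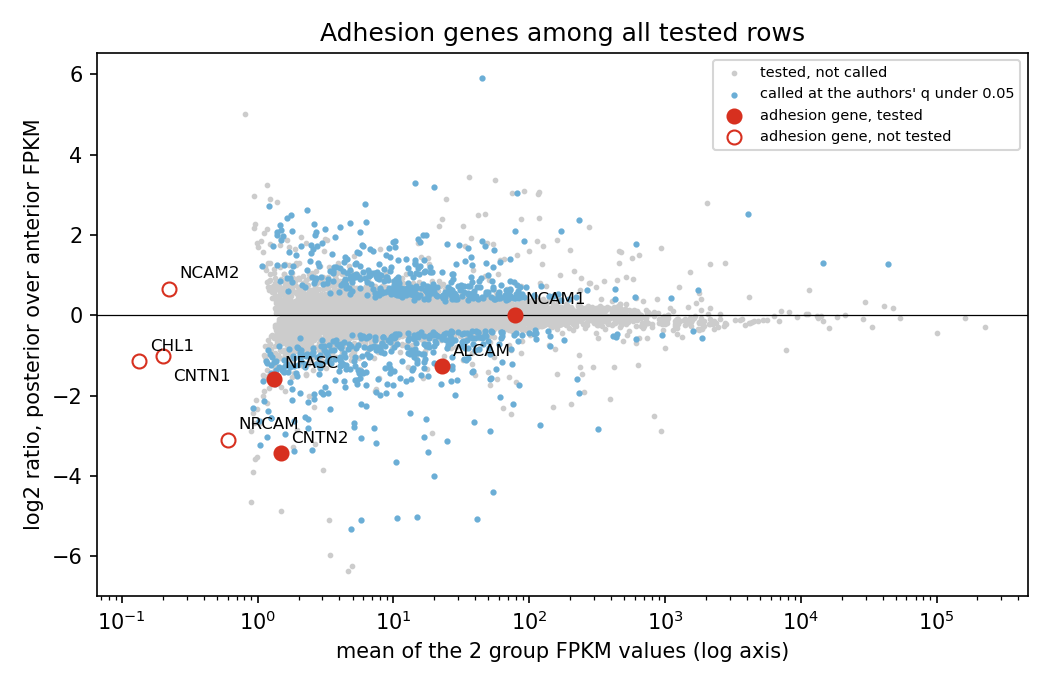
Log2 ratio of posterior over anterior FPKM (y axis) against the mean of both group values (x axis, log) for every tested row with both values above 0 (grey, or blue where the authors' q was under 0.05). The 8 adhesion genes are red, filled where tested: CNTN2, NFASC and ALCAM lie below 0 among blue points, NCAM1 lies on the line at 0, and the 4 open points lie to the left of the tested rows.

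Several of the 8 genes are neighbours in the genome. NFASC and CNTN2 are direct neighbours on chromosome 26 of galGal4, NFASC from 1841734 to 1918228 and CNTN2 from 1920859 to 1944417, with 2630 bases and no other row between them. NRCAM and CNTN1 stand next to each other on chromosome 1, with 108779 bases and no row between, NRCAM from 28525499 to 28668231 and CNTN1 from 28777011 to 28942648. CHL1, on chromosome 12 from 17219615 to 17297334, is followed by a further contactin gene, CNTN6, at a distance of 256140 bases with no row between. Each L1 family gene of the 8 thus has a contactin gene as its next row. NCAM2 lies apart on chromosome 1, from 100155276 to 100281469. No row overlaps any of the 8 loci.

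The outer neighbours of the pair on chromosome 26 were LRRN2 and TMEM81. LRRN2 was at 0.757 FPKM in posterior and 0.910 FPKM in anterior half-sclerotomes. TMEM81 was at 0.648 FPKM in posterior and 0.448 FPKM in anterior half-sclerotomes, and neither was tested. The row after ALCAM, the ubiquitin ligase gene CBLB, was at 8.73 FPKM in posterior and 8.75 FPKM in anterior half-sclerotomes (q = 0.996 in the authors' deposited table). The row before NCAM1, TTC12, was at 5.51 FPKM in posterior and 6.54 FPKM in anterior half-sclerotomes (q = 0.649 in the authors' deposited table). A row without a symbol follows NCAM2 at a distance of 67013 bases and was called higher in posterior. It was at 20679 FPKM in posterior and 8319.5 FPKM in anterior half-sclerotomes (q = 0.0224 in the authors' deposited table).

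For each called gene, the 3 tested genes with the nearest pair of levels were found by the distance between their log2 FPKM values over the 2 groups. With only 2 values a gene, such likeness says how alike the levels are and no more. For ALCAM these were the small RNA SNORA58, the kinase gene HUNK and SNAI2, a transcription factor gene of neural crest. SNAI2 was at 15.4 FPKM in posterior and 38.6 FPKM in anterior half-sclerotomes and HUNK at 12.2 FPKM in posterior and 27.5 FPKM in anterior half-sclerotomes, both at q = 0.00139 in the authors' deposited table, whereas SNORA58 had a q of 0.906 there. HUNK and SNORA58 share their loci with other rows.

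For CNTN2 the nearest were the homeobox gene ALX1, the collagen gene COL25A1 and TTC9. ALX1 was at 0.253 FPKM in posterior and 2.08 FPKM in anterior half-sclerotomes and COL25A1 at 0.323 FPKM in posterior and 3.36 FPKM in anterior half-sclerotomes, both at q = 0.00139 in the authors' deposited table. TTC9 had similar levels, 0.339 FPKM in posterior and 3.29 FPKM in anterior half-sclerotomes, but a q of 0.254 in the authors' deposited table. For NFASC the nearest were SMYD1, a methyltransferase gene of muscle, TMX1 and CHGA, which encodes chromogranin A of secretory granules. SMYD1 was at 0.649 FPKM in posterior and 2.01 FPKM in anterior half-sclerotomes (q = 0.0699 in the authors' deposited table), and CHGA at 0.629 FPKM in posterior and 2.07 FPKM in anterior half-sclerotomes (q = 0.00261 in the authors' deposited table). TMX1 was at 0.674 FPKM in posterior and 1.94 FPKM in anterior half-sclerotomes, nearly the values of NFASC, with a q of 0.675 in the authors' deposited table. Nearly equal pairs of FPKM values thus came with very different q.

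Other immunoglobulin-type adhesion genes differed in both directions. Of 44 in the list, 35 were matched and 27 were tested, and 6 of these were called higher in posterior and 5 higher in anterior. Over all tested rows, 3.57% were called higher in posterior and 3.50% higher in anterior, so calls were more frequent in this list in both directions. The list was chosen with earlier results of these data known, so this difference in share is description only. The median log2 ratio of the 27 was 0.00, like that of all tested rows (0.00). The contactin CNTN3 lay on chromosome 12, as does CHL1, and rose to 3.85 FPKM in posterior half-sclerotomes, against 2.22 FPKM in anterior ones (log2 ratio 0.79, q = 0.00577 in the authors' deposited table). CNTN3 thus differed in the opposite direction to CNTN2. The remaining matched contactins, named after their values were seen, were not tested: CNTN6 was at 0.0627 FPKM in posterior half-sclerotomes and is listed at 0 in anterior ones, and CNTN5, matched through its older symbol, was at 0.0160 FPKM in posterior and is listed at 0 in anterior ones. L1CAM and CNTN4 were not matched to a row and were not analysed here.

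The largest rise in this list was that of ISLR2, which takes part in axon growth and shares with LRIG1 and LRIG3 leucine-rich repeats beside its immunoglobulin domain. ISLR2 was at 9.19 FPKM in posterior and 2.80 FPKM in anterior half-sclerotomes (log2 ratio 1.71, q = 0.00139 in the authors' deposited table). LRIG1, a negative regulator of growth factor receptors, rose to 124.9 FPKM in posterior, against 90.2 FPKM in anterior half-sclerotomes (q = 0.00371 in the authors' deposited table), and LRIG3 fell to 19.0 FPKM in posterior, against 31.5 FPKM in anterior half-sclerotomes (q = 0.00139 in the authors' deposited table). PVRL1, which encodes nectin-1 of adherens junctions, was at 51.4 FPKM in posterior and 31.7 FPKM in anterior half-sclerotomes. EMB, which encodes embigin, was at 53.6 FPKM in posterior and 33.0 FPKM in anterior half-sclerotomes, and both were at q = 0.00139 in the authors' deposited table. Among these 5 genes, LRIG3 was the one that was lower in posterior.

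The lipid-anchored proteins of the IgLON family, which act in neurite growth, moved apart. NTM (neurotrimin) fell to 1.13 FPKM in posterior half-sclerotomes, against 5.70 FPKM in anterior ones (log2 ratio -2.34, q = 0.00776 in the authors' deposited table), and LSAMP to 2.89 FPKM in posterior, against 8.52 FPKM in anterior half-sclerotomes (log2 ratio -1.56, q = 0.00139 in the authors' deposited table). NEGR1, of the same family, rose to 14.0 FPKM in posterior, against 7.62 FPKM in anterior half-sclerotomes (log2 ratio 0.88, q = 0.0184 in the authors' deposited table). OPCML, the fourth tested member, was at 5.17 FPKM in posterior and 4.26 FPKM in anterior half-sclerotomes (q = 0.774 in the authors' deposited table), and was named after its values were seen. NTM and OPCML share their loci with another row.

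CADM1, a synaptic and epithelial adhesion protein, fell to 45.1 FPKM in posterior half-sclerotomes, against 103.9 FPKM in anterior ones (log2 ratio -1.20, q = 0.00139 in the authors' deposited table). CDON, a co-receptor for Hedgehog ligands, fell to 6.83 FPKM in posterior, against 9.88 FPKM in anterior half-sclerotomes (q = 0.0278 in the authors' deposited table). The most abundant genes without a call were BSG (basigin) at 244 FPKM in posterior and 245 FPKM in anterior half-sclerotomes, MCAM at 140.6 FPKM in posterior and 160.4 FPKM in anterior half-sclerotomes, and KIRREL at 81.8 FPKM in posterior and 92.1 FPKM in anterior half-sclerotomes. Like NCAM1, these are abundant adhesion genes with no called difference. PVRL1 shares its locus with another row.

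**Figure D3:**
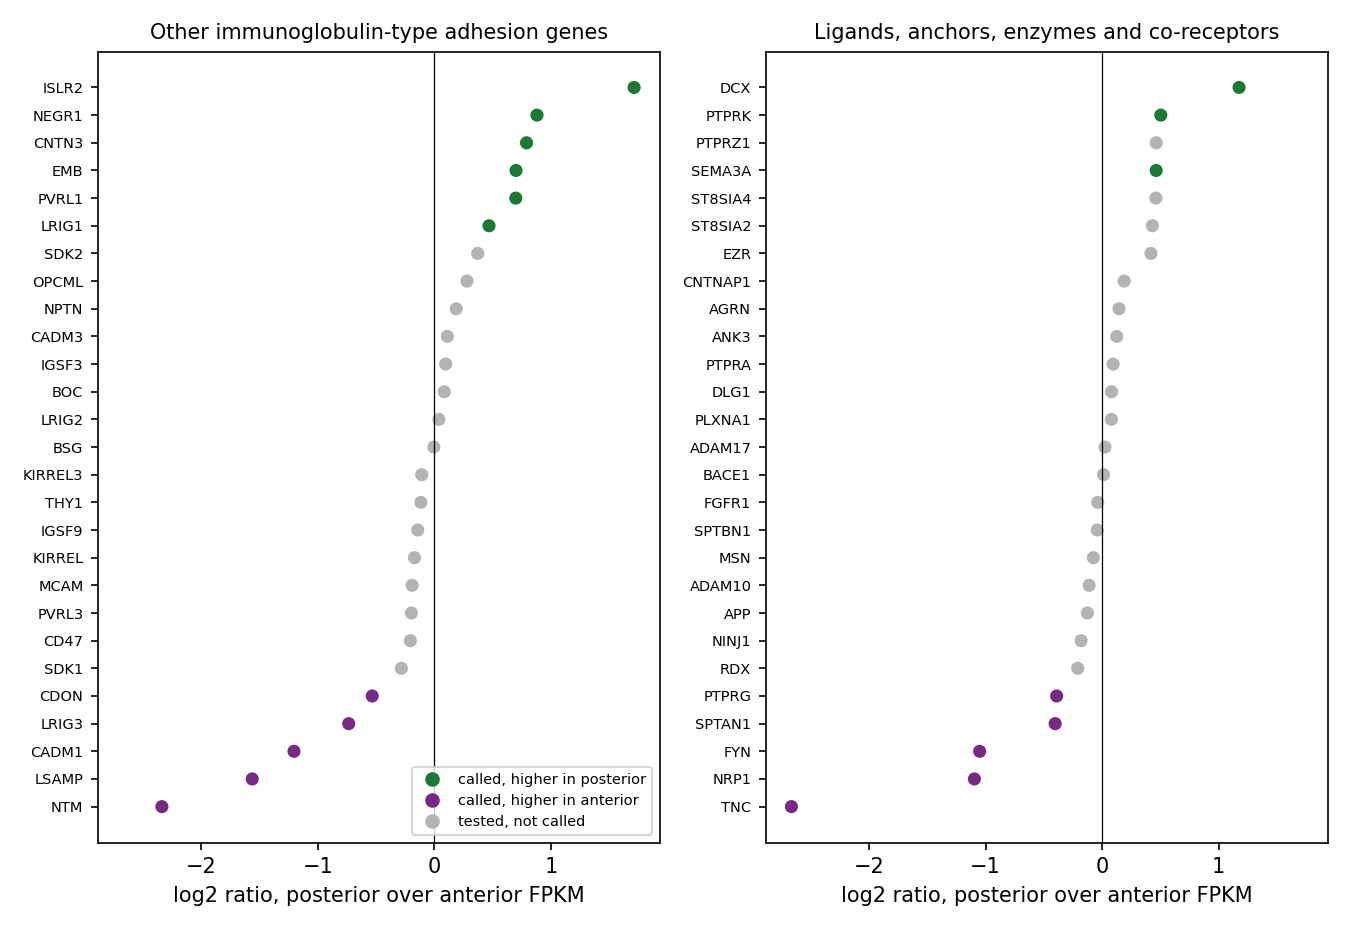
Log2 ratio of posterior over anterior FPKM for the 27 tested genes of other immunoglobulin-type adhesion proteins (left) and for the 27 tested genes of ligands, anchors, enzymes and co-receptors of the 8 proteins or their families (right). Green points were called higher in posterior, purple points higher in anterior, and grey points were not called; ISLR2 and DCX lie furthest to the right, NTM and TNC furthest to the left.

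Genes whose products work with the 8 proteins, or with other proteins of their families, were called in both directions too. Of 43 listed ligands, anchors, enzymes and co-receptors, 35 were matched and 27 tested. Of these 27, 3 were called higher in posterior and 5 higher in anterior, against 3.57% and 3.50% of all tested rows. Their median log2 ratio was 0.02. Of the ligands, TNC, which encodes tenascin-C, a matrix glycoprotein that contactins bind, fell to 10.7 FPKM in posterior half-sclerotomes, against 67.8 FPKM in anterior ones (log2 ratio -2.67, q = 0.00139 in the authors' deposited table). NRP1, the co-receptor through which L1 takes part in semaphorin signalling, fell to 21.0 FPKM in posterior, against 44.8 FPKM in anterior half-sclerotomes (log2 ratio -1.10), while the ligand gene SEMA3A rose to 27.7 FPKM in posterior, against 20.1 FPKM in anterior half-sclerotomes (q = 0.00139 for NRP1 and 0.0190 for SEMA3A in the authors' deposited table). So of these 3 genes, the ligand of matrix and the co-receptor were lower in posterior and the semaphorin was higher.

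Inside the cell, FYN, the kinase that acts downstream of NCAM1 and contactins, fell to 23.2 FPKM in posterior half-sclerotomes, against 48.1 FPKM in anterior ones (log2 ratio -1.05, q = 0.00139 in the authors' deposited table). SPTAN1, a spectrin subunit of the ankyrin-bound skeleton, fell to 45.1 FPKM in posterior, against 59.6 FPKM in anterior half-sclerotomes (q = 0.0217 in the authors' deposited table). DCX, the microtubule protein that binds the tail of neurofascin, went the other way from NFASC itself, at 21.2 FPKM in posterior and 9.38 FPKM in anterior half-sclerotomes (log2 ratio 1.17, q = 0.00139 in the authors' deposited table). Among the receptor phosphatases, PTPRG fell to 23.1 FPKM in posterior, against 30.3 FPKM in anterior half-sclerotomes (q = 0.0387 in the authors' deposited table). PTPRK rose to 31.2 FPKM in posterior, against 22.0 FPKM in anterior half-sclerotomes (q = 0.00473 in the authors' deposited table). SPTAN1 and PTPRG share their loci with another row.

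The most abundant of these genes without a call were APP at 199 FPKM in posterior and 218 FPKM in anterior half-sclerotomes, FGFR1, a receptor that NCAM1 activates, at 120.5 FPKM in posterior and 123.8 FPKM in anterior half-sclerotomes, and MSN (moesin) at 111.0 FPKM in posterior and 116.9 FPKM in anterior half-sclerotomes. The polysialyltransferase genes ST8SIA2 and ST8SIA4, whose enzymes add polysialic acid to NCAM1, were named after their values were seen. ST8SIA2 was at 15.8 FPKM in posterior and 11.7 FPKM in anterior half-sclerotomes (q = 0.196 in the authors' deposited table), and ST8SIA4 at 5.81 FPKM in posterior and 4.22 FPKM in anterior half-sclerotomes (q = 0.134 in the authors' deposited table). Neither was called.

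Marker genes of cell types other than sclerotome also differed between the groups. Beside each count of calls in these lists stand the shares over all tested rows, 3.57% higher in posterior and 3.50% higher in anterior. Of 21 neural crest and Schwann cell genes, 16 were tested, of which 9 were called higher in anterior and 0 higher in posterior (1 at an unadjusted p under 0.05), with a median log2 ratio of -1.81. Their summed FPKM was 364 in posterior and 631 in anterior half-sclerotomes, and TYRP1 of this list is listed at 0 in both. The largest values in the posterior sum were those of genes without a call, named after their values were seen. These were FABP7 at 104 FPKM, NGFR at 79.3 FPKM, SOX9 at 69.7 FPKM and ETS1 at 62.6 FPKM in posterior half-sclerotomes. FABP7 is also in the neural tube list and SOX9 in the sclerotome list, so the sum is not a measure of neural crest RNA alone. TFAP2A was at 0.240 FPKM in posterior and 9.52 FPKM in anterior half-sclerotomes (q = 0.0138 in the authors' deposited table), and CDH7 at 0.326 FPKM in posterior and 11.3 FPKM in anterior half-sclerotomes (q = 0.00139 in the authors' deposited table). The called genes of this list lay in the same direction as CNTN2, NFASC and ALCAM, while 3 tested genes without a call had the higher value in posterior. The part of neural crest cells in those differences was not tested.

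Of 27 neuron genes, 21 were matched but only 6 tested, with 1 called higher in posterior and 2 higher in anterior and a median log2 ratio of -0.56. The called ones with the largest ratios were RET, the receptor for GDNF family ligands, at 2.48 FPKM in posterior and 5.80 FPKM in anterior half-sclerotomes (q = 0.00139 in the authors' deposited table), and DCX, given above. Of the 15 that were not tested, 11 had the higher value in anterior and 4 in posterior half-sclerotomes. The summed FPKM of the list was 76.4 in posterior and 115 in anterior half-sclerotomes. Of the untested genes, NTRK2 is listed at 0 in posterior and at 0.184 FPKM in anterior half-sclerotomes. MNX1 was at 0.0646 FPKM in posterior half-sclerotomes and is listed at 0 in anterior ones. ISL1 was at 0.166 FPKM in posterior and 1.43 FPKM in anterior half-sclerotomes, and CHAT at 0.0210 FPKM in posterior and 0.183 FPKM in anterior ones. All of these untested genes were named after their values were seen. The part of neurons in the values of CNTN2, NFASC and NRCAM was not tested.

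Dermomyotome and myotome genes gave 9 anterior calls and 0 posterior ones (also 0 at an unadjusted p under 0.05) in 19 that were tested, with a median log2 ratio of -1.02 and a summed FPKM of 199.6 in posterior and 299 in anterior half-sclerotomes. The row MYH1B, matched to MYH3 only through a RefSeq synonym and sharing its locus with other rows, is listed at 0 in posterior. PAX3 was at 1.22 FPKM in posterior and 10.2 FPKM in anterior half-sclerotomes and MEF2C at 3.64 FPKM in posterior and 13.9 FPKM in anterior half-sclerotomes, both at q = 0.00139 in the authors' deposited table. Endothelial genes lay the other way, with 9 posterior calls and 0 anterior ones (also 0 at an unadjusted p under 0.05) in 17 that were tested, a median log2 ratio of 0.61 and a summed FPKM of 283 in posterior and 210 in anterior half-sclerotomes. ESM1 was at 2.77 FPKM in posterior and 0.518 FPKM in anterior half-sclerotomes and VWF at 2.45 FPKM in posterior and 0.620 FPKM in anterior half-sclerotomes, both at q = 0.00139 in the authors' deposited table. NCAM1 is also known from myotome, and the part of muscle or vessel cells in its level was not tested.

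Of the neural tube list, 3 genes were tested and 1 was called, ZIC1, at 23.9 FPKM in posterior and 6.43 FPKM in anterior half-sclerotomes (q = 0.00139 in the authors' deposited table). The median log2 ratio of the 3 was -0.24, and the other 4 matched genes of the list, named after their values were seen, had the higher value in anterior. SOX2 was at 0.107 FPKM in posterior and 6.74 FPKM in anterior half-sclerotomes (q = 0.680 in the authors' deposited table) and FABP7 at 104 FPKM in posterior and 123 FPKM in anterior half-sclerotomes (q = 0.444 in the authors' deposited table). PAX6, at 0.0752 FPKM in posterior and 0.464 FPKM in anterior half-sclerotomes, and DBX1, listed at 0 in posterior and at 0.0621 FPKM in anterior half-sclerotomes, were not tested. The summed FPKM of the neural tube list was 128 in posterior and 137 in anterior half-sclerotomes. Of the notochord and floor plate list, 2 genes were tested and 0 called (1, T, at an unadjusted p under 0.05), NTN1 at 39.7 FPKM in posterior and 35.0 FPKM in anterior half-sclerotomes and T at 5.03 FPKM in posterior and 3.16 FPKM in anterior half-sclerotomes. Its summed FPKM was 45.6 in posterior and 39.7 in anterior half-sclerotomes, most of it from NTN1. The other 4 matched genes of this list were not tested and had the higher value in anterior half-sclerotomes. One of them, NOTO, is listed at 0 in posterior. All 13 matched sclerotome genes were tested, with 7 called higher in posterior and 1 higher in anterior, a median log2 ratio of 0.42 and a summed FPKM of 1579 in posterior and 1306 in anterior half-sclerotomes. UNCX, a posterior gene, was at 87.8 FPKM in posterior and 1.45 FPKM in anterior half-sclerotomes, and TBX18, an anterior gene, at 3.10 FPKM in posterior and 32.5 FPKM in anterior half-sclerotomes, both at q = 0.00139 in the authors' deposited table, so both went with the group labels.

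**Figure D4:**
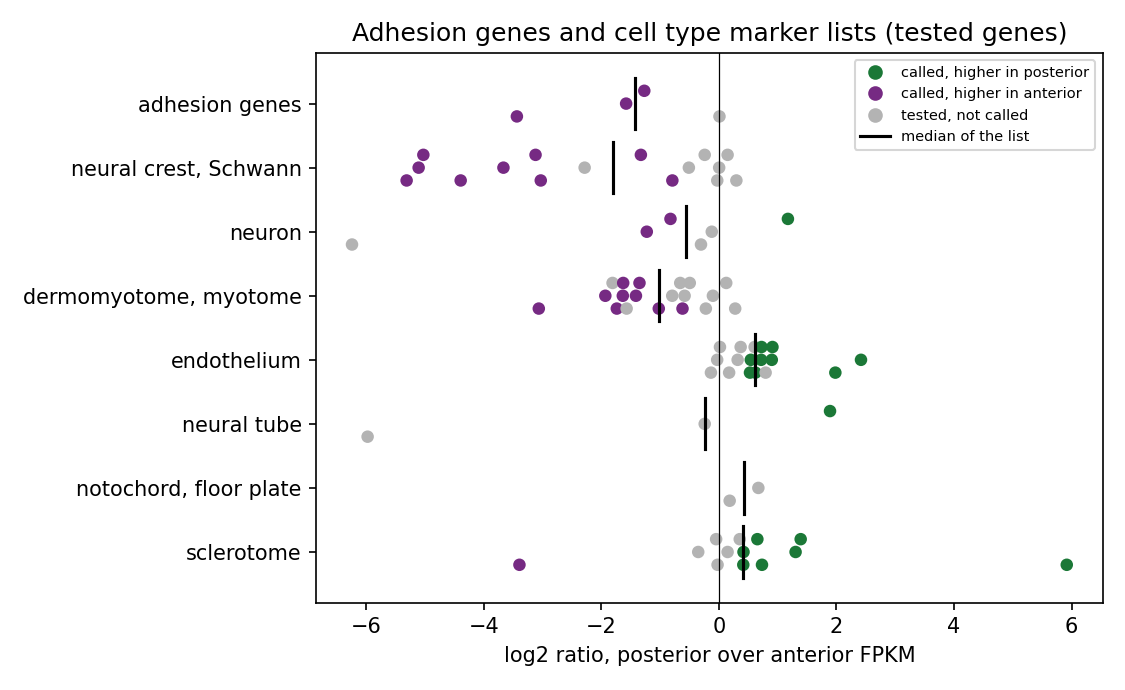
Log2 ratio of posterior over anterior FPKM of each tested gene among the 8 adhesion genes and the 7 cell type marker lists, with the list median as a black bar. Green points were called higher in posterior, purple points higher in anterior, and grey points were not called. The medians of neural crest (-1.81) and dermomyotome and myotome genes (-1.02) lie left of 0, that of endothelium (0.61) right of it.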

How the data were processed

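Per the labels' protocols, poly(A) RNA was taken from roughly 200 ng of total RNA of each pool, turned into stranded libraries and sequenced as 50 nt single-end reads. Named in the submitters' processing notes, with no role given, are TopHat2 2.1.0, Cufflinks 2.2.1, Cuffdiff, FastQC and the build galGal4. Per the file headers, the authors deposited a Cuffdiff gene comparison with 1 FPKM value per group, a p-value and a q-value. Counting options and the annotation release were not given in the sources used here. Depth is unknown, so no counting interval was possible.

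Of 17108 rows, the authors left 6579 (38.5%) untested. Benjamini-Hochberg adjustment of the deposited p-values came within 5.27e-07 of their q. The lowest deposited p, 5e-05, was shared by 380 rows and has q = 0.00139, so rows at this limit cannot be ranked. The log2 ratio was computed from FPKM, with no pseudocount. Loci have 1 added to each start, since the lowest is 0. Genes were matched by symbol, and in the lists 13 through RefSeq synonyms of assembly GRCg7b. Each matched gene named from the adhesion and partner lists was called, was among the 3 most abundant uncalled ones, or is said to be named after its values were seen. Marker lists are named by their 2 called genes of largest ratio, or the most abundant where 0 were called. Other marker genes, among them every one listed at 0 in either group, were named after their values were seen. The 8 genes and all lists were chosen with earlier results of these data known. The adjustment step was tested on simulated data. Python 3.11.15, pandas 2.3.3 and numpy 2.4.6 were used. Calls were recounted at other thresholds, and ratios recomputed at other pseudocounts and scaling.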

Additional observations from a re-analysis of the deposited data

How the results depend on the processing

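The 8 adhesion genes gave 3 anterior calls and 0 posterior ones at q under 0.01, q under 0.1, unadjusted p under 0.05, with only rows of mean FPKM of at least 1, and at a difference of at least 2-fold. None of these settings could change the counts. The 3 called genes have the lowest deposited Cuffdiff p, 5e-05, means of at least 1.31 FPKM and ratios of at least 2.41-fold. NCAM1, the other tested gene, has a Cuffdiff p of 0.936. Requiring 2-fold left 1 posterior and 3 anterior calls among the other immunoglobulin-type genes, 1 and 3 among the partner genes, and 132 and 177 among all rows (1.68% of tested rows higher in anterior). At q under 0.01 there were 3 anterior calls among partner genes and 245 among all rows. At unadjusted p under 0.05 there were 6 posterior calls among partner genes, and 864 posterior and 835 anterior among all rows. These changes follow from the thresholds themselves. The order of the 8 genes by level was the same by the higher of both group values, which also weighs most in the mean. It was not the same within each group. By posterior values alone NFASC had rank 3, NCAM2 rank 4, CNTN2 rank 5 and NRCAM rank 7. By anterior values alone NCAM2 had rank 8. Adding 1 to FPKM moved NRCAM to -0.88, CNTN1 to -0.17 and CHL1 to -0.13 (log2), and adding 0.1 moved NRCAM to -2.38 and CNTN2 to -3.00. Subtracting the median log2 ratio of all tested rows, 0.00459, could change no direction among named genes with a call, whose ratios are all far larger. Summing rows of a symbol could change nothing, because none of these genes has more than 1 row. No paired analysis was possible because the table holds 1 value per group, and for the same reason no library could be left out. Depth is unknown, so what it hides at low levels cannot be stated.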
